A study of Mus musculus with 6 samples.

Results

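The genes described here are 32 genes of mitosis, most of which build or control the spindle and the kinetochore. They were chosen by name from what their products do, with earlier results of these data already known. All 32 were found among the 33924 genes of the deposited table. Expression was measured by RNA sequencing of total RNA in 6 mouse libraries, 2 in each of 3 groups. Leukemia 1 and leukemia 92 are primary leukemias of bone marrow with the genotype Mll-Af4/ N-RasG12D. Mll-Af4 mice aged 6 to 8 weeks gave the starting cells, which were c-Kit+ Sca1+. These were kept overnight with lymphoid cytokines, transduced with an MSCV retrovirus carrying Cre and TdTomato, sorted for Tomato and transduced again with an N-RasG12D retrovirus. Each lethally irradiated recipient (900 rads) then received 250000 such cells by tail vein together with 200000 wild-type helper marrow cells, so the marrow of a leukemic mouse can also hold host and helper cells. The third group is pro-B cells of bone marrow, given as B220+CD43+IgM- and wildtype in genotype, with no age stated. The labels do not say how or whether the leukemia cells were sorted after harvest. The labels do not say whether the 2 replicates of a group came from separate mice, and p-values then measure only the spread between these libraries, which may be technical.

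In mitosis a cell condenses its chromosomes, attaches them by their kinetochores to a spindle of microtubules and pulls the sister chromatids apart. Cyclins A and B with CDK1 start the process, kinases such as PLK1 and the Aurora kinases order its steps, and a checkpoint holds back the anaphase-promoting complex (APC/C) until every kinetochore is attached. Most of these genes are transcribed late in the cell cycle, after the genes of DNA replication, and are held down in resting cells by the DREAM complex and driven in dividing cells by B-MYB and FOXM1. Pro-B cells of the marrow include cells in rapid division. In bulk RNA, fewer dividing cells and less RNA of a gene in each dividing cell cannot be told apart.

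Each library held between 22153444 and 27444759 counts in genes, and the lowest count of any member in any library was 391. Levels are CPM, that is counts scaled to a common library size by TMM. The 2 libraries of leukemia 1 stood apart from each other. Between them log2 ratios had an SD of 1.03 over 11745 genes, against 0.25 in leukemia 92 and 0.22 in pro-B cells. This SD does not say which of the 2 libraries was unusual. In leukemia 1 replicate 2, 14 granulocyte markers summed to 16810 CPM, against 187 to 817 CPM in the other 5 libraries. Its 4 Y-linked genes summed to 44.6 CPM, against 4.92 CPM in replicate 1. The 15 pro-B markers summed to 5665 to 6902 CPM in all 6 libraries, but its genes moved in opposite directions. Dntt, the terminal transferase of this stage, was at 970 and 604 CPM in pro-B replicates 1 and 2 and at 1.11 CPM or less in every leukemia library. The recombinase gene Rag1 was at 319 to 360.0 CPM in pro-B cells and 10.4 to 73.0 CPM in leukemia, Rag2 at 37.4 to 47.3 CPM and 1.77 to 6.71 CPM, and the cytokine receptor gene Il7r at 320 to 374 CPM and 104 to 227 CPM. Cd79a, of the B cell receptor, was at 413 to 451 CPM in pro-B cells and 993 to 1443 CPM in leukemia. Cd79b lay higher in leukemia too, at 337 to 347 and 393 to 909 CPM in the same order. So did Pax5, at 96.8 to 98.3 and 127 to 146 CPM, and Vpreb1, at 340 to 419 and 442 to 880 CPM. Spn lay lower in leukemia, at 304 to 306 and 113 to 217 CPM. The other pro-B markers overlapped between leukemia and pro-B cells. Erythroid markers summed to 77.8 and 184 CPM in the pro-B libraries and to 1.23 to 4.14 CPM in leukemia, and T and NK markers to 452 and 471 CPM against 13.8 to 56.8 CPM. In leukemia 92 replicates 1 and 2, 5 and 4 of 10 erythroid and 3 and 2 of 11 T and NK markers were at 0, while no granulocyte marker was at 0 in any library. The part of these other cells in the levels given below was not tested.

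Mitotic genes were lower in leukemia than in pro-B cells. Summed over the 32 genes, pro-B cells had 7987 and 7881 CPM, leukemia 1 had 4231 and 5158 CPM, and leukemia 92 had 2720 and 2905 CPM, or 34.3% and 36.6% of the pro-B mean. For 29 of the 32 genes all 4 leukemia libraries lay below both pro-B libraries, an order that 27.3% of the 15280 genes tested showed, and for none did all 4 lie above both (23.4% of genes). The exceptions were Cenpa, Ndc80 and Pttg1.

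With each leukemia as the unit (counts of its 2 libraries summed, 2 leukemias against 2 pro-B libraries, edgeR quasi-likelihood test with Benjamini-Hochberg adjustment over all genes), 11 of the 32 members fell, at an adjusted p under 0.05. That is 34.4% of them, beside 10.7% of all genes tested. None was called higher, beside 9.54% of all genes, whether by edgeR, by DESeq2 or before adjustment. The edgeR test pooled the spread between the 2 leukemias with that between the 2 pro-B libraries, which may be technical. The median log2 change of the members was -0.99, beside 0.02 for all genes tested, and the range was -1.61 to 0.13. The count rested on single libraries: it was 1 without leukemia 1 replicate 1, 24 without its replicate 2, 7 without leukemia 92 replicate 2, and 0 without either pro-B library, where 12 and 13 members passed before adjustment. The share of all genes called lower in these 5 fits was 6.99%, 12%, 10.6%, 0% and 0%, so without a pro-B library no gene at all was called. The median stayed between -0.85 and -1.11 in these fits.

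**Figure D1:**
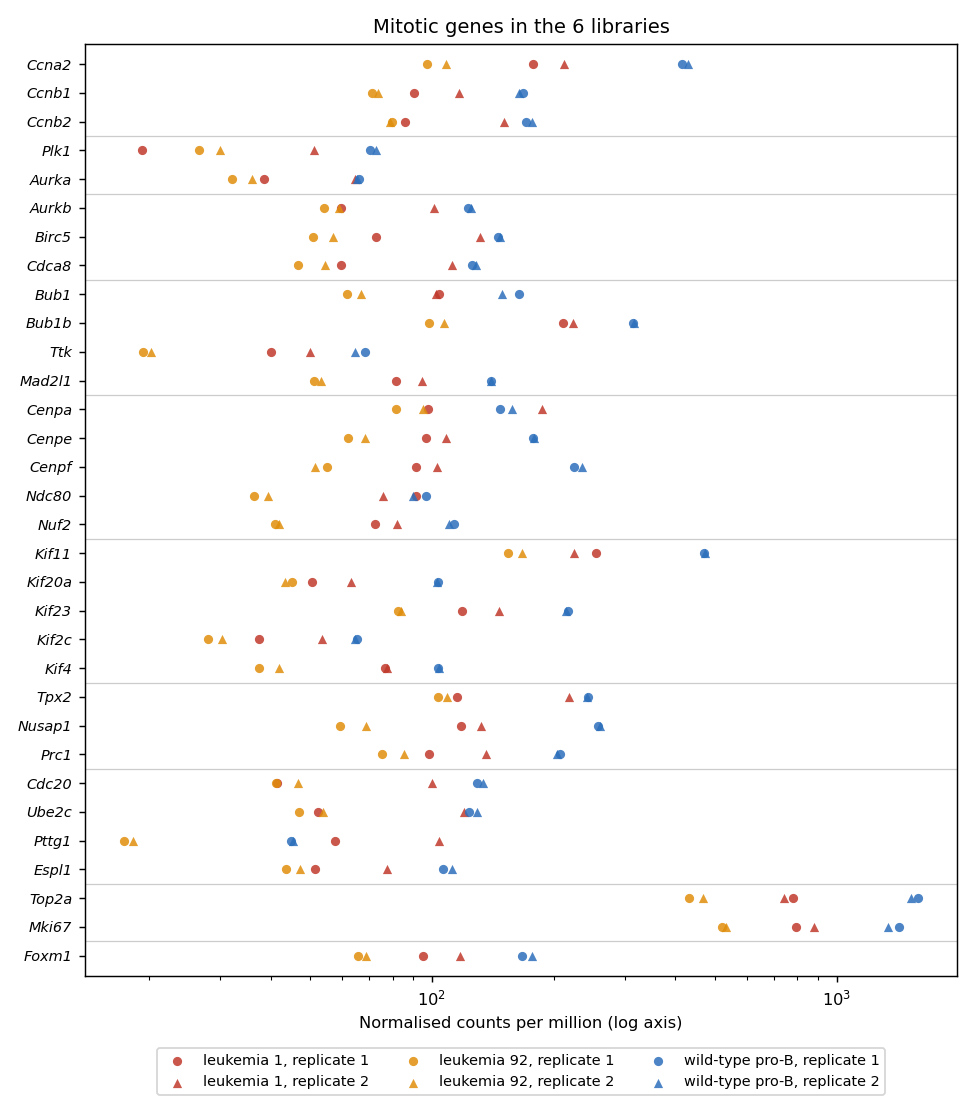
Level of each of the 32 genes in each library, in normalised CPM on a log axis, with genes grouped by role (grey lines). Leukemia 92 (orange) lies lowest for most genes and pro-B cells (blue) highest, and Pttg1 shows leukemia 1 (red) above pro-B cells.

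Each leukemia was also set against pro-B cells in a fit of all 6 libraries with 1 coefficient per group, and these comparisons share the pro-B libraries. In leukemia 92, 28 of 32 members fell and none rose, beside 16.7% and 14.7% of 14979 genes tested, with a median log2 change of -1.36 (all genes -0.04). In leukemia 1, 16 of 32 fell, and none rose, beside 10.7% and 9.55% of genes, with a median of -0.65 (all genes 0.05). The count for leukemia 92 was 6 and 10 without its replicates 1 and 2, 7 and 8 without pro-B replicates 1 and 2, and 32 without either library of leukemia 1. For leukemia 1 it was 4 without either library of leukemia 92, 0 without either pro-B library (15 and 16 before adjustment, p under 0.05), 25 lower and 2 higher without its replicate 1, and 30 lower and 1 higher without its replicate 2. The calls over all genes moved too. For leukemia 92 the share called lower was 1.39% and 1.45% without its own libraries, 1.23% and 1.21% without those of pro-B cells, and 35.9% and 38.5% without those of leukemia 1. For leukemia 1 it was 2.5% and 2.49% without the libraries of leukemia 92, 0% without either pro-B library, and 31.2% and 32.7% without its own, where 28.4% and 29.6% were called higher. A group left with 1 library is assumed to vary like the others.

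The leukemias themselves differed. Of the 32 members 10 were lower in leukemia 92 than in leukemia 1 and none higher, whether by edgeR, by DESeq2 or before adjustment. Of all 14979 genes 1.27% were called lower and 1.82% higher, and the median log2 difference was -0.69 (all genes -0.08). Both leukemia 92 libraries lay below both leukemia 1 libraries for 29 members, an order shown by 25.8% of genes, and not for Plk1, Cdc20 and Ube2c. The 10 calls were lost, to 0, without leukemia 92 replicate 1 or 2, without pro-B replicate 1 or 2, and when only the 4 leukemia libraries were fitted, with 15 to 17 members lower before adjustment (p under 0.05). Without leukemia 1 replicate 1 the count was 32, and without its replicate 2 it was 21 lower and 1 higher (Plk1). In those fits 26% and 27.3% of all genes were called lower and 24.5% and 25.2% higher, and in the fits that called 0 members no gene was called.

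**Figure D2:**
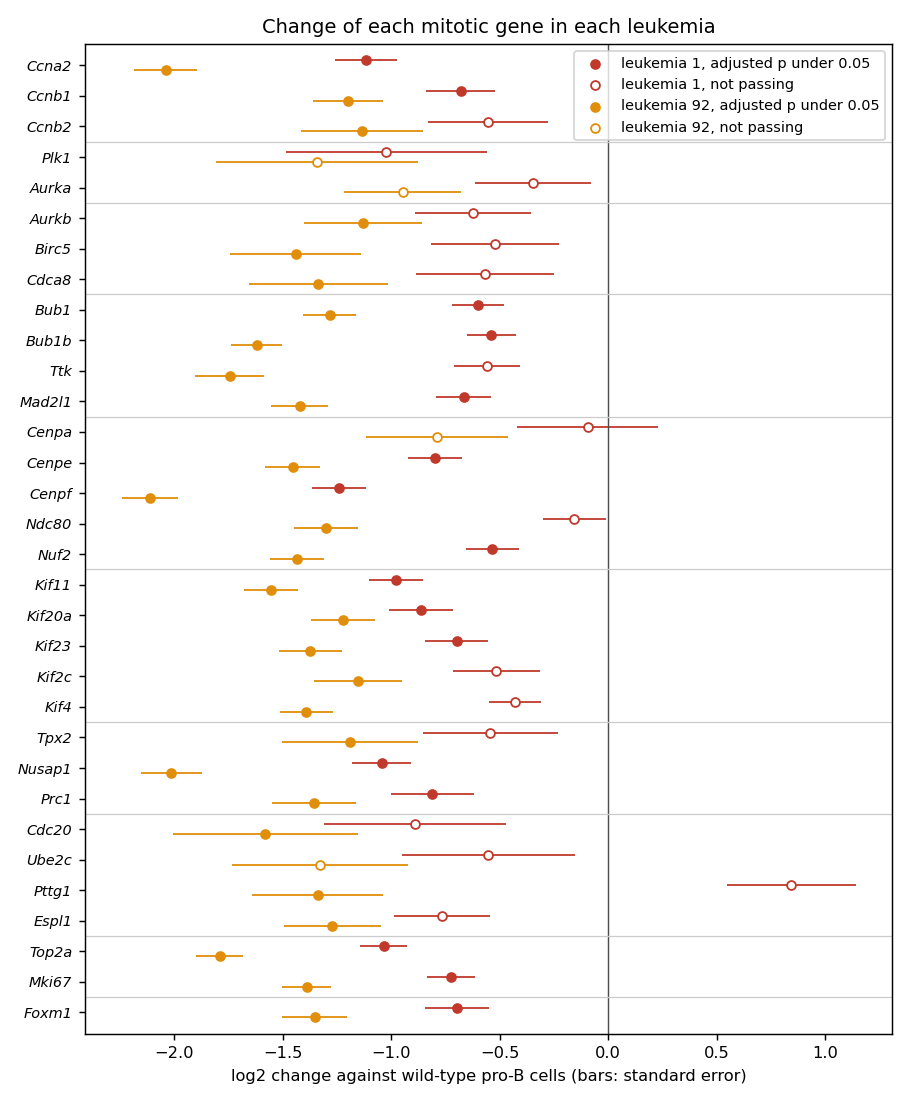
Log2 change of each gene against wild-type pro-B cells for leukemia 1 (red) and leukemia 92 (orange), with standard errors and filled points for an adjusted p under 0.05. All 32 changes in leukemia 92 lie below 0, while Pttg1 in leukemia 1 lies at 0.84.

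Among the cyclins, Ccna2, the cyclin of S phase and G2, stood at 178 and 212 CPM in leukemia 1, at 97.5 and 108 CPM in leukemia 92, and at 416 and 430.1 CPM in pro-B cells. The 3 groups did not overlap, and the log2 change was -1.51 in leukemia (edgeR, SE 0.32, adjusted p = 0.048) and -0.92 in leukemia 92 against leukemia 1 (SE 0.14, adjusted p = 0.047). Ccnb1, the main mitotic partner of CDK1, was at 90.3 and 117 CPM in leukemia 1, at 71.2 and 73.5 CPM in leukemia 92 and at 168 and 164 CPM in pro-B cells. It fell by 0.91 on the log2 scale (edgeR, SE 0.19, adjusted p = 0.047). Ccnb2, the second B cyclin, ranged from 78.8 to 150.5 CPM in leukemia and was at 171 and 177 CPM in pro-B cells, with a log2 change of -0.80 that did not pass (adjusted p = 0.073). Cdk1 itself, which is no member, showed a log2 change of -0.47 (SE 0.24, adjusted p = 0.23) and 188 CPM in leukemia 1 replicate 2, while both pro-B libraries lay lower, at 168 and 180 CPM.

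Of the kinases of mitotic entry, Plk1, which acts at centrosomes and kinetochores, had 19.2 and 51.2 CPM in leukemia 1, 26.6 and 29.9 CPM in leukemia 92 and 70.5 and 72.9 CPM in pro-B cells. It fell by 1.16 on the log2 scale (edgeR, SE 0.15, adjusted p = 0.020), and the lowest and highest leukemia values were both from leukemia 1. The call was lost with all 6 libraries and 1 coefficient per group (adjusted p = 0.075). Aurka, the centrosomal Aurora kinase, was at 38.4 and 64.7 CPM in leukemia 1, at 32.2 and 35.9 CPM in leukemia 92 and at 66.2 and 65.2 CPM in pro-B cells. Its log2 change of -0.61 did not pass (SE 0.22, adjusted p = 0.13), and replicate 2 of leukemia 1 lay next to the pro-B libraries.

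The chromosomal passenger complex corrects faulty attachments between kinetochores and microtubules. Birc5, its subunit survivin, stood at 72.7 and 131 CPM in leukemia 1, at 51.0 and 56.9 CPM in leukemia 92, and at 146 and 147 CPM in pro-B cells. Aurkb, its kinase, and Cdca8, the subunit borealin, showed the same order, and the 3 log2 changes lay between -0.85 and -0.90 without passing (edgeR adjusted p = 0.054 to 0.13). Against pro-B cells all 3 fell in leukemia 92, by 1.13 to 1.44 on the log2 scale, and did not pass in leukemia 1, while the difference between the leukemias passed for none of them (adjusted p = 0.15 to 0.31).

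Genes of the spindle checkpoint, which delays anaphase, were lowest in leukemia 92. Bub1b, which encodes the APC/C inhibitor BUBR1, was at 210.5 and 223 CPM in leukemia 1, at 98.2 and 107 CPM in leukemia 92, and at 315 and 315 CPM in pro-B cells. Ttk, the checkpoint kinase MPS1, was at 40.0 and 50 CPM, 19.3 and 20.3 CPM, and 68.2 and 64.4 CPM in the same order of groups. Neither passed for leukemia as a whole (log2 changes -0.99 and -1.04, edgeR adjusted p = 0.14 and 0.15). Both were lower in leukemia 92 than in leukemia 1, by a log2 difference of -1.08 (SE 0.12, adjusted p = 0.029) and -1.19 (SE 0.16, adjusted p = 0.039). The kinase Bub1 and the checkpoint effector Mad2l1 lay between 51.1 and 104 CPM in leukemia and between 140 and 164 CPM in pro-B cells. Both fell in each leukemia against pro-B cells in the fit of all 6 libraries. With only the 4 libraries compared, neither passed in leukemia 1 (edgeR adjusted p = 0.092 and 0.087).

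The centromere and kinetochore genes ranged from a clear fall to levels that overlapped pro-B cells. Cenpf, a large coiled-coil protein of the outer kinetochore, stood at 91.5 and 103 CPM in leukemia 1, at 54.9 and 51.4 CPM in leukemia 92 and at 225 and 235 CPM in pro-B cells. Its log2 change of -1.61 (edgeR, SE 0.31, adjusted p = 0.039) was the furthest from 0 among the 32 members. Cenpe, the kinesin that carries chromosomes to the spindle equator, was at 97.0 and 109 CPM, 62.2 and 68.3 CPM, and 178 and 179 CPM in that order, and fell by 1.09 (SE 0.23, adjusted p = 0.049). Ndc80 and Nuf2 encode the pair of subunits that bind the microtubule. Ndc80 was at 91.5 and 75.9 CPM in leukemia 1, which overlapped the 96.6 and 89.9 CPM of pro-B cells, and at 36.3 and 39.4 CPM in leukemia 92. Its log2 difference between leukemia 92 and leukemia 1 was -1.14 (SE 0.15, adjusted p = 0.037), while its change in leukemia 1 against pro-B cells was -0.16 (SE 0.15, adjusted p = 0.49). Nuf2 was at 72.3 and 82.2 CPM in leukemia 1, at 40.9 and 41.9 CPM in leukemia 92 and at 113 and 110.5 CPM in pro-B cells, and passed between the leukemias too (log2 difference -0.90, adjusted p = 0.042). Cenpa, the centromeric histone H3 variant, was at 97.9 and 188 CPM in leukemia 1, at 81.5 and 95.0 CPM in leukemia 92 and at 147 and 158 CPM in pro-B cells. It passed in no comparison, and leukemia 1 replicate 2 had the highest value of all libraries.

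Mitotic kinesins move and shape the spindle. Kif11, the motor that pushes the spindle poles apart, was at 255 and 224 CPM in leukemia 1, at 154 and 167 CPM in leukemia 92, and at 471 and 473 CPM in pro-B cells. It fell by 1.24 on the log2 scale (edgeR, SE 0.21, adjusted p = 0.031) and was the 1 member still called without leukemia 1 replicate 1 (adjusted p = 0.041), where the other 10 calls had adjusted p values of 0.058 to 0.25. Kif20a, a motor of cytokinesis, was at 50.7 and 63.0 CPM, 45.2 and 43.4 CPM, and 104 and 103 CPM in the same order, and fell by 1.02 (SE 0.15, adjusted p = 0.023). Kif4, the chromokinesin, was at 76.7 and 77.6 CPM in leukemia 1, at 37.3 and 42.0 CPM in leukemia 92, and at 104 and 104 CPM in pro-B cells. It passed between the leukemias (log2 difference -0.96, SE 0.12, adjusted p = 0.035) and not for leukemia as a whole (log2 change -0.84, adjusted p = 0.15). Kif23, of the spindle midzone, and Kif2c, a microtubule depolymerase, had log2 changes of -0.99 and -0.80 that did not pass (adjusted p = 0.061 and 0.087).

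Of the proteins that bind spindle microtubules, Prc1, which crosslinks the midzone, was at 98.4 and 136 CPM in leukemia 1, at 75.3 and 85.2 CPM in leukemia 92 and at 207 and 204 CPM in pro-B cells, and fell by 1.05 on the log2 scale (edgeR, SE 0.20, adjusted p = 0.040). Nusap1 was at 118 and 132 CPM, 59.3 and 68.8 CPM, and 257 and 260.3 CPM in the same order. Its log2 change of -1.45 did not pass (SE 0.34, adjusted p = 0.057), while its difference between the leukemias did (-0.97, adjusted p = 0.043). Tpx2, the activator of Aurora A, was at 115 and 218 CPM in leukemia 1, at 103 and 109 CPM in leukemia 92 and at 244 and 241 CPM in pro-B cells, with a log2 change of -0.82 that did not pass (adjusted p = 0.085).

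Next come the genes of anaphase. Cdc20, the APC/C activator that the checkpoint restrains, was at 41.5 and 100.3 CPM in leukemia 1, at 41.2 and 46.6 CPM in leukemia 92, and at 129 and 134 CPM in pro-B cells, and fell by 1.18 on the log2 scale (edgeR, SE 0.25, adjusted p = 0.048), a call lost with all 6 libraries and 1 coefficient per group (adjusted p = 0.053). Espl1, the separase that cleaves cohesin, was at 51.3 and 77.4 CPM, 43.5 and 47.2 CPM, and 107 and 112 CPM in that order, and fell by 0.99 (SE 0.19, adjusted p = 0.040). Ube2c, the ubiquitin-conjugating enzyme of the APC/C, was at 52.2 and 120.1 CPM in leukemia 1, at 46.9 and 53.9 CPM in leukemia 92 and at 124 and 129 CPM in pro-B cells. Its log2 change of -0.88 did not pass (adjusted p = 0.10).

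Pttg1, the securin that keeps separase inactive, went its own way. It was at 57.6 and 104 CPM in leukemia 1, above the 44.8 and 45.4 CPM of pro-B cells, and at 17.4 and 18.3 CPM in leukemia 92, below them. Its log2 change was 0.84 in leukemia 1 (edgeR, SE 0.30, adjusted p = 0.11) and -1.34 in leukemia 92 (SE 0.30, adjusted p = 0.030). The difference of -2.18 between the leukemias (SE 0.31, adjusted p = 0.044) was the furthest from 0 among the 32 members. For leukemia as a whole its change was 0.13 (SE 0.73, adjusted p = 0.91) and turned to -0.28 without leukemia 1 replicate 2 (adjusted p = 0.77).

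Top2a, the topoisomerase that disentangles sister chromatids, was at 780.5 and 740.1 CPM in leukemia 1, at 433 and 468 CPM in leukemia 92, and at 1588 and 1529 CPM in pro-B cells. It fell by 1.37 on the log2 scale (edgeR, SE 0.26, adjusted p = 0.040) and passed between the leukemias (log2 difference -0.76, SE 0.11, adjusted p = 0.043). Mki67, the proliferation antigen that coats mitotic chromosomes, was at 794 and 879 CPM, 522 and 532 CPM, and 1426 and 1338 CPM in that order. Its log2 change of -1.02 lay just outside the threshold (SE 0.24, adjusted p = 0.056). Foxm1, the transcription factor of this gene group, was at 94.9 and 117 CPM in leukemia 1, at 65.8 and 68.9 CPM in leukemia 92 and at 167 and 177 CPM in pro-B cells, with a log2 change of -0.99 (SE 0.24, adjusted p = 0.060). Mki67 and Foxm1 both fell in each leukemia against pro-B cells in the fit of all 6 libraries (edgeR adjusted p = 0.0026 to 0.034). With only the 4 libraries compared, neither passed in leukemia 1 (edgeR adjusted p = 0.064 and 0.098).

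The members also differed in how far the leukemia 1 libraries lay from each other. Plk1 was 2.67-fold, Cdc20 2.41-fold and Ube2c 2.30-fold higher in replicate 2 than in replicate 1, with log2 ratios of 1.41, 1.27 and 1.20 (SE from counting alone 0.08, 0.05 and 0.05). These are 3 of 32 members, and 10.3% of all genes reached 2-fold, so their number does not set the members apart. In all, 12 of 32 members were at least 1.5-fold higher in replicate 2, beside 19.1% of 11745 genes with 10 counts in every library. The other 9 were Ccnb2, Aurka, Aurkb, Birc5, Cdca8, Cenpa, Tpx2, Pttg1 and Espl1, between 1.51-fold and 1.92-fold. By contrast the log2 ratio was -0.08 for Top2a, -0.18 for Kif11, -0.27 for Ndc80, -0.03 for Bub1 and 0.02 for Kif4. Over the 32 members the SD of this log2 ratio was 0.43 in leukemia 1 (1.03 over all genes), against 0.077 in leukemia 92 and 0.055 in pro-B cells. Among 34 genes of DNA replication 0 were 1.5-fold higher in replicate 2 of leukemia 1, and their log2 ratios ran from -1.61 to 0.25. All 14 granulocyte markers were higher in replicate 2, with a median log2 ratio of 6.60, and the part of those cells in the ratios of the mitotic genes was not tested.

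**Figure D3:**
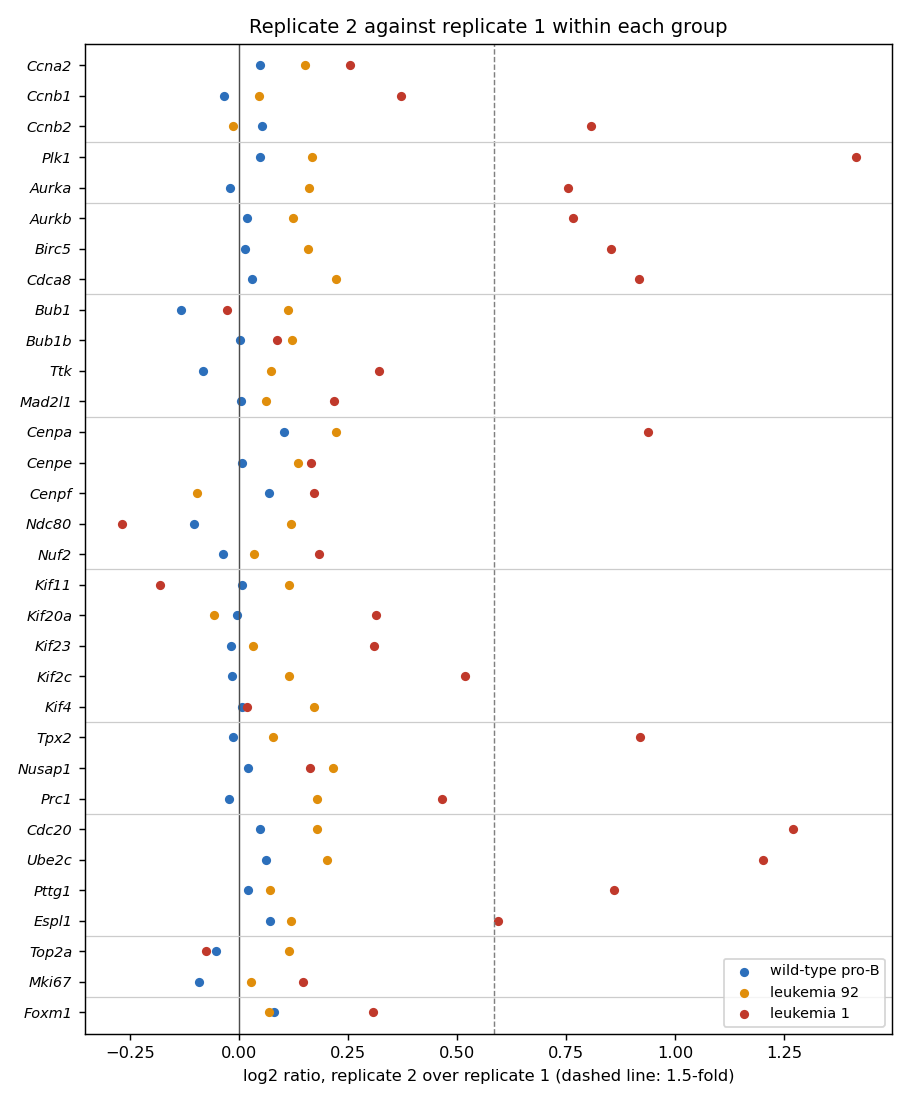
Log2 ratio of replicate 2 over replicate 1 for each of the 32 genes within leukemia 1 (red), leukemia 92 (orange) and pro-B cells (blue), with a dashed line at 1.5-fold. Red points reach 1.41 for Plk1, while the orange and blue points lie between -0.13 and 0.22.

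Promoters of mitotic genes are known for a pair of elements: the cell cycle genes homology region (CHR), TTTGAA, which the DREAM, B-MYB and FOXM1 complexes contact, and CCAAT boxes, CCAAT, bound by NF-Y. Promoter windows from RefSeq (GRCm38.p6, 250 bases before to 50 after a start) were matched for 27 of the 32 members, in 28 windows, and not for Ccna2, Aurkb, Kif20a, Tpx2 and Foxm1. Both strands were searched, and matches of the motifs may share an end base. TTTGAA was in 20 of 28 windows (71.4%), beside 17.9% of all 32851 windows. CCAAT was in 21 (75%, beside 37.4%), and both were in 18 (64.3%, beside 6.95%). In 18 of the 20 windows a TTTGAA match began within 50 bases of the start. Windows of Pttg1, Birc5, Nuf2, Nusap1 and Mad2l1 held neither set of letters. These matches are letters in a sequence, not measured sites.

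The 100 bases before the start are shown for 4 members because they carry both motifs and fall on both sides of the contrast between the leukemia 1 libraries, with Cdc20 and Ube2c over 2-fold apart and Top2a and Kif11 nearly level. Capitals mark both motifs, read on either strand. The builds of these coordinates (GRCm38.p6) and of the counts (mm9) differ. The windows are chr4:118437344-118437443 on the minus strand for Cdc20, chr2:164769829-164769928 on the plus strand for Ube2c, chr11:99024190-99024289 on the minus strand for Top2a and chr19:37376282-37376381 on the plus strand for Kif11, each written 5′ to 3′ along its gene.
Cdc20: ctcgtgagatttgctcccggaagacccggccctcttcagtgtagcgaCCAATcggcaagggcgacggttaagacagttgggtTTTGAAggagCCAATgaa
Ube2c: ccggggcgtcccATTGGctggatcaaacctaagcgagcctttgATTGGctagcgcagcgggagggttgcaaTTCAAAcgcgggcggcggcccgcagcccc
Top2a: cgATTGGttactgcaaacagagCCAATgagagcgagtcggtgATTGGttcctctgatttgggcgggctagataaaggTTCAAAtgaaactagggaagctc
Kif11: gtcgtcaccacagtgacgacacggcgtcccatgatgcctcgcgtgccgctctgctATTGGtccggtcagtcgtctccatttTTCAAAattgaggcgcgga

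In these stretches the first base of TTTGAA or its reverse complement lies 18 bases before the start in Cdc20, 29 in Ube2c, 23 in Top2a and 19 in Kif11. They were picked for holding both motifs, so their presence here says nothing about the difference between the leukemia 1 libraries.

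**Figure D4:**
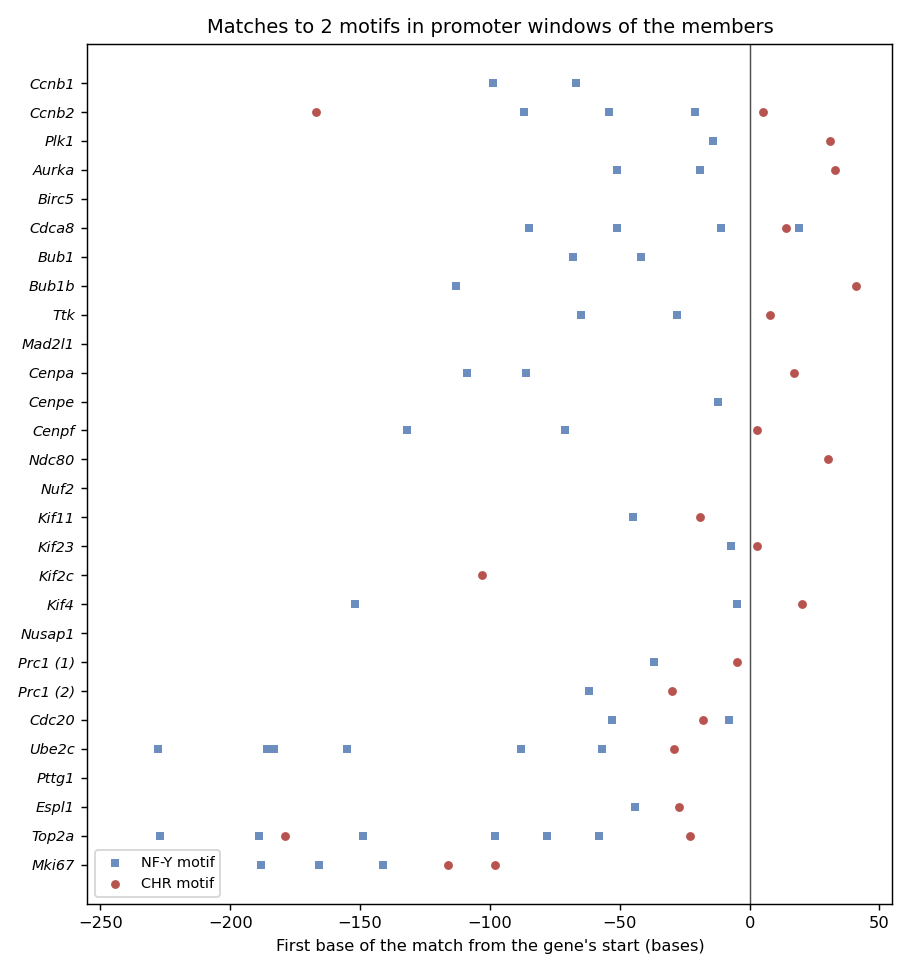
First base of each match to the CHR motif (red circles) and the NF-Y motif (blue squares), in bases from the start (0), in the 28 promoter windows of 27 members. Of 20 windows with a CHR match, 18 have one within 50 bases of the start, and the rows of Pttg1, Birc5, Nuf2, Nusap1 and Mad2l1 are empty.

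Other genes of mitosis were taken from lists by function. The share of a list called lower in leukemia was at most 33.3% (other kinesins, condensin and cohesin), beside 34.4% for the 32 members. In leukemia against pro-B cells 3 of 9 other kinesins fell, 2 of 8 cytokinesis genes, 6 of 18 condensin and cohesin genes, 5 of 20 spindle and centrosome genes, 3 of 14 other kinases and CDK1 regulators, 3 of 28 other kinetochore genes and 2 of 15 APC/C genes. Over all genes tested the share was 10.7%, and the last 2 lists, with 10.7% and 13.3%, lay at or near it. Median log2 changes of these lists ran from -0.26 for the APC/C to -0.86 for cytokinesis, against -0.99 for the 32 members and 0.02 for all genes. Without leukemia 1 replicate 1 these counts were 1, 1, 4, 2, 1, 0 and 0 in the same order, and without either pro-B library they were 0. Among 9 other checkpoint and passenger genes edgeR called 0 and DESeq2 called 3 lower, beside 10.7% and 15.9% of all genes. In edgeR 2 were lower before adjustment (p under 0.05), as were 2931 of all 15280 genes, near the same share. In leukemia 92 against pro-B cells the shares of all these lists called lower ran from 26.7% (APC/C) to 88.9% (other checkpoint and passenger). For the members it was 87.5%, and for all genes 16.7%.

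In leukemia 1 the level of Cdc25b, a phosphatase that activates CDK1, was 25.6 and 56.2 CPM. It was 21.1 and 25.9 CPM in leukemia 92 and 331 and 337 CPM in pro-B cells, a fall of 3.36 on the log2 scale (edgeR, SE 0.31, adjusted p = 0.015). Tfdp2, a dimer partner of E2F factors and the 1 of 16 DREAM, MYB-MuvB and NF-Y genes that fell, was at 17.6 to 27.3 CPM in leukemia and 114 and 118 CPM in pro-B cells (log2 change -2.39, adjusted p = 0.011). Psrc1, a spindle-associated protein, went the other way, from 25.2 and 26.5 CPM in pro-B cells to 115 to 123 CPM in all 4 leukemia libraries (log2 change 2.21, SE 0.12, adjusted p = 0.0075). Wapal, which releases cohesin, rose by 0.74 (adjusted p = 0.031), against 0.27 and 1.11 with adjusted p values of 0.63 and 0.085 without leukemia 1 replicates 1 and 2.

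The kinesin Kif20b fell by 1.02 (adjusted p = 0.018). Further falls were those of the kinase Nek2 (-1.11), the phosphatase Cdc25c (-0.84), the kinesins Kif14 (-1.27) and Kif18b (-0.97), the centromere genes Cenpn (-1.40) and Cenpp (-1.11), the spindle genes Numa1 (-0.66), Hmmr (-1.17) and Spag5 (-0.87), the cytokinesis gene Depdc1a (-1.13), and the APC/C subunits Anapc1 (-0.57) and Cdc23 (-0.62), all as log2 changes. The condensin subunit Ncapd3 (-0.74) and the cohesin genes Pds5b (-1.24) and Stag1 (-0.67) fell too. Cdc25b, Tfdp2, Psrc1 and Kif20b kept their calls without each single leukemia library and lost them without either pro-B library. The others named here lost theirs without leukemia 1 replicate 1 (Nek2, Cdc25c, Kif14, Kif18b, Cenpn, Cenpp, Numa1, Hmmr, Spag5, Depdc1a, Anapc1 and Cdc23), or without its replicate 2 (Anapc1, Cdc23, Ncapd3, Pds5b and Stag1).

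Genes of DNA replication are expressed before the mitotic genes in the cell cycle, and in both leukemias their median lay nearer to pro-B cells than that of the members. Their median log2 ratio to the pro-B mean, over 34 genes, was 0.01 and -0.09 in the leukemia 1 libraries and -0.87 and -0.68 in those of leukemia 92. For the 32 mitotic members the same medians were -0.89 and -0.49, and -1.43 and -1.31. In leukemia 92, 23 of the 34 replication genes fell against pro-B cells, beside 16.7% of all genes (0 without either of its libraries, with 20 and 23 passing before adjustment, and 0 without either pro-B library, with 22 each). In leukemia 1 it was 2 (5.88%, beside 10.7% of all genes), against 13 lower and 3 higher without its replicate 1, 13 lower and 8 higher without its replicate 2, and 0 without any other library, with 1 to 4 lower before adjustment. Without its replicates 1 and 2, 31.2% and 32.7% of all genes were called lower. For leukemia as a whole edgeR called 0 and DESeq2 called 9 lower, beside 10.7% and 15.9% of all genes. In edgeR 7 of the 34 were lower before adjustment (p under 0.05). So were 2931 of all 15280 genes, which is near the same share. The gap between both lists was described and not tested.

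**Figure D5:**
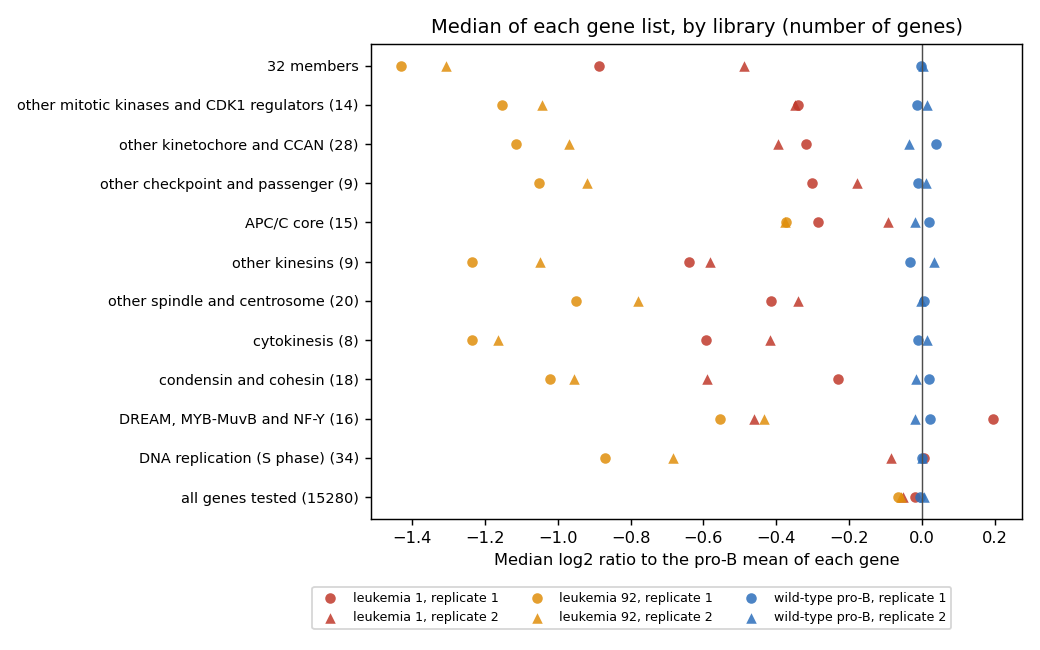
Median log2 ratio to the pro-B mean for the 32 members and for other gene lists (number of genes in brackets), 1 point per library. In leukemia 1 the replication genes lie at 0.01 and -0.09 while the members lie at -0.89 and -0.49.

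Cdkn1a, the inhibitor p21 that restrains cyclin-dependent kinases, was at 525 and 276 CPM in leukemia 1, at 410 and 376 CPM in leukemia 92 and at 36.6 and 25.0 CPM in pro-B cells. It rose by 3.68 on the log2 scale (edgeR, SE 0.25, adjusted p = 0.010), a call lost without pro-B replicate 1 or 2 (adjusted p = 0.094 and 0.11). Leukemia 1 replicate 1 had the highest Cdkn1a level and a sum over the 32 mitotic genes of 4231 CPM. That sum was 5158 CPM in its replicate 2, and 2720 and 2905 CPM in leukemia 92. Replicate 2 of leukemia 1 also held the 16810 CPM of granulocyte markers. A link between Cdkn1a and the mitotic genes was not tested.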

How the data were processed

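The authors deposited 1 table of raw counts per gene for 6 libraries of total RNA, 2 per group. Per the submitters' processing notes, STAR 2.4, HTSeq 0.6.1, DESeq2 and build mm9 were used. For annotation and strand settings the sources used here give nothing, and reads of overlapping or antisense genes, and of close copies such as pseudogenes, cannot be told apart. Entries that name no gene (34.0% to 39.6% of a library) were left out.

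Genes were filtered with filterByExpr (minimum count 10), scaled by TMM and tested with edgeR 4.0.16 (R 4.3.3; robust quasi-likelihood test, Benjamini-Hochberg over all genes, threshold 0.05). For leukemia against pro-B cells the counts of each leukemia's 2 libraries were summed. The other comparisons used all 6 libraries. CPM were computed from TMM-scaled library sizes, where 3 counts are 0.111 to 0.140 CPM. Ratios and shares carry counting error beside spread between libraries. The fits were tested on simulated data. Promoter sequences came from RefSeq (GRCm38.p6).

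The members and lists were chosen with earlier results of these data known. Of 228 list entries 225 matched. Values in every library are given for called members, for those with the largest and smallest change and for the most abundant of each role. From each other list up to 3 called genes per direction with the smallest p are named, plus Cdk1 and Cdkn1a. A gene that this rule would name is not reported here. Alternatives were RLE scaling, no filter, DESeq2 1.42.0, a replicate block, other sets of libraries and leaving out each library. A crossed block, and alternatives for the other lists and genes, were chosen after seeing the data.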

Additional observations from a re-analysis of the deposited data

Results flagged for a closer look

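Replicate 2 of leukemia 1 lay far above the other 3 leukemia libraries for 5 of the 32 members: Ccnb2 at 150.5 CPM, Aurkb at 101.3 CPM, Tpx2 at 217.9 CPM, Cdc20 at 100.3 CPM and Ube2c at 120.1 CPM. In each case its gap to the next library, on the log2 scale, exceeded Dixon's 95% critical value for 4 samples. Chance flags about 1 in 20 groups of 4 like samples, but these are 2 libraries from each of 2 leukemias. The members are measured in the same libraries, and 10.3% of all genes were at least 2-fold higher in replicate 2 than in replicate 1. The flags are therefore not read as a trait of the members. The same library held the 16810 CPM of granulocyte markers, whose part in these values was not tested.

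The leukemias differed from each other, by the edgeR quasi-likelihood test of the difference itself, in 10 members. The log2 difference of leukemia 92 minus leukemia 1 was -0.92 for Ccna2, -1.08 for Bub1b, -1.19 for Ttk, -0.87 for Cenpf, -1.14 for Ndc80, -0.90 for Nuf2, -0.96 for Kif4, -0.97 for Nusap1, -2.18 for Pttg1 and -0.76 for Top2a. In all 10 both leukemia 92 libraries lay below both leukemia 1 libraries, an order that 29 of the 32 members and 25.8% of genes showed. The 10 were picked by a test on these same libraries, so the order adds no support.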

How the results depend on the processing

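Every comparison has 2 libraries or 2 leukemias per group, and the counts of called members moved with single libraries. For leukemia against pro-B cells 11 members were called lower, and 26 with DESeq2 (15.9% of all genes called lower), 23 with 6 libraries and 1 coefficient per group (17.4%), and 0 to 24 when 1 library was left out. Without leukemia 92 replicate 2 the calls lost were Ccna2, Ccnb1, Cenpe and Cdc20. For leukemia 1 the 16 calls became 5 when the 4 libraries compared were fitted alone (3.74% of all genes), and 0 to 30 lower and 0 to 2 higher with 1 library left out. For leukemia 92 the 28 calls ranged from 6 to 32 with 1 library left out. Between the leukemias the 10 calls became 19 with DESeq2 (8.81% of all genes, against 1.27%), 0 with the 4 libraries alone (0 of all genes), and 0 to 32 lower and 0 to 1 higher with 1 library left out. With RLE scaling these 4 counts were unchanged, and without the filter on low counts they were 16, 16, 29 and 8.

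Same-numbered replicates did not deviate together (correlations of -0.161, 0.061 and -0.034 over 14979 genes). Each group gives only a single difference between replicates, so these correlations cannot exclude a batch shared by replicate number. With the replicate number as a block the counts were 24, 7, 25 and 0 in the order above (12.9%, 4.93%, 10.7% and 0% of all genes). Of the 11 calls for leukemia, 9 remained under the block and 9 with 6 libraries and 1 coefficient per group, and Plk1 (adjusted p = 0.070 and 0.075) and Cdc20 (0.052 and 0.053) lost theirs in both. The crossed block, chosen after seeing the data, gave 0 between the leukemias (20 at an unadjusted p under 0.05).

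Pttg1 in leukemia against pro-B cells turned from 0.13 to -0.27 with the replicate block and -0.25 with 6 libraries and 1 coefficient per group, and ran from -0.28 (without leukemia 1 replicate 2) to 0.45 with 1 library left out. Cenpa in leukemia 1, at -0.10, ran from -0.68 to 0.29, the latter without its replicate 1 (edgeR adjusted p = 0.032). Between the leukemias Plk1, at -0.32, ran from -0.85 to 0.56, and Cdc20, at -0.69, from -1.18 to 0.081, both turning without leukemia 1 replicate 2 (adjusted p = 0.0019 for Plk1). The cause was not tested. Every member had at least 391 counts in every library, so depth did not limit their detection.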
